A study of Homo sapiens with 4 samples.

Results

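The DEAD-box (DDX) and DEAH-box (DHX) RNA helicase genes are described here across a list of RNA regions, called peaks, from a crosslinked RNA immunoprecipitation of PRMT5. The rule for a member is its gene name, DDX or DHX followed by a number, protein coding. RefSeq lists 54 such genes, 38 DDX and 16 DHX, and 36 of them had at least 1 peak, with 99 of the 18993 peaks and 36 of the 8478 genes of the list. Of the 8478 genes of the list, 6749 received a name, so a gene said to have no peak has none under its name. The share of all protein-coding RefSeq genes with a peak was not computed. Counts of genes with a peak, here and by role or list below, are therefore not read as many or few. The cells were Jurkat, a line long kept in culture from a human T cell leukemia, activated for 48 hours with the lectin PHA, which stimulates T cells, and then fixed with UV light, which the labels give as 264 nm at 400 mJ. All 4 libraries came from such cells: 2 PRMT5 RIP libraries, in which PRMT5 was pulled down through a FLAG tag, and 2 input libraries, made of the RNA before the pull-down. No library of a control antibody was analysed here, so input is the only background.

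For each peak the authors' list gives a reads-per-million value (RPM) once per group, pooled over its 2 libraries and rounded to 0.01. There is therefore no spread between replicates for any value below, and no difference was tested. The measure used is the log2 ratio of PRMT5 RIP over input, computed with 0.01 added to each RPM, and a gene's value is the ratio of its RPM summed over its peaks. RPM is not divided by length, so it is not read as more or less RNA of a gene than of another. It is given as the signal behind each ratio, and genes are compared by their ratios. In what follows, values written as 1 number against another are RPM in PRMT5 RIP against RPM in input. Read depth per library is not given by the list. Of 14 T cell markers, 11 had a peak, CD3D, CD3E and LCK among them. TRAC, TRBC1 and TRBC2 had no peak under their names. A peak was also found for 1 of 6 B cell markers (CD79A) and 1 of 5 myeloid markers (CSF1R). The same held for 2 of 4 erythroid markers (HBA1 and HBA2, which are near-identical copies).

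These helicases are enzymes that use ATP to unwind or remodel RNA and to strip proteins from it, and they are named after the letters of a conserved sequence motif in the enzyme core. Most DEAD-box proteins open short duplexes locally, whereas most DEAH-box proteins move along a strand. Together they act at nearly every step of RNA life, from splicing and ribosome assembly to export, translation and decay. PRMT5 is an arginine methyltransferase that works in a complex with WDR77 and is known for methylating the Sm proteins of the spliceosome. A peak here is a region of a helicase's own RNA that the authors' list calls for PRMT5 RIP over input, not a measure of the helicase protein. Without a control antibody, a peak alone does not show that PRMT5 binds the RNA.

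The letters at the 5′ end of the 5′-most peak are shown for 9 genes, and the values of these regions are described below. They let the paralogs DDX17 and DDX5, and DDX39A and DDX39B, be set side by side. Each stretch has at most 30 bases, in the sense direction, from the RefSeq promoter table of GRCh38.p14. Capitals mark ATGGCG or its reverse complement CGCCAT, the core of a motif known for the transcription factor YY1. ATGGCG also begins with ATG, the letters of a start codon, and whether any marked stretch is a YY1 site was not tested. The 9 include all 6 marked stretches among the 19 that were available, so the motif is more frequent in this display than among the 19. The peak of DDX39B is shown whole.
DDX17 (chr22:38506290-38506319, minus strand): cggcggcCGCCATtttgtgcagtcgctggg
DDX5 (chr17:64506090-64506119, minus strand): atgtcgggttattcgagtgaccgagaccgc
DDX39A (chr19:14419292-14419321, minus strand): accgaagttggaagtgtctcttagcagcgc
DDX39B (chr6:31541968-31541992, minus strand): cttcgtcgctgttgctgcCGCCATa
DDX23 (chr12:48852128-48852157, minus strand): gcgaccaggaaacgggaaagATGGCGacgg
DHX16 (chr6:30672960-30672989, minus strand): ctttgggatgtcggaagatcctagaggtcc
DDX47 (chr12:12813366-12813395, plus strand): agATGGCGgcacccgaggaacacgattctc
DDX54 (chr12:113185444-113185473, minus strand): gcgttcccagcgcgcggcccgaATGGCGgc
DDX56 (chr7:44573874-44573903, minus strand): gcagCGCCATggaggactctgaagcactgg

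The letters were available for the 5′-most peak of 19 helicase genes. Their GC content had a median of 63.3%, between 53.3% and 80.0%. The core motif, searched on both strands, stood in 6 of the 19 stretches. In the first 50 bases after each annotated start, it stood in 9 of the 45 windows of helicase genes with a peak (20%), and in 4.34% of all 35116 windows in the table. The latter were not limited to genes with a peak, and the share among all genes with a peak was not computed. The gap is therefore not read as a trait of the helicases. The AU-rich pentamer ATTTA, searched in the sense direction, was in 0 of the 45 windows and in 2.28% of all windows. With 45 windows, 0 cannot be told apart from that share, and windows at gene starts do not bear on 3′ untranslated regions. These matches were looked up after the peaks had been seen, and they are counts of letters.

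Over the 36 helicase genes the log2 ratio ran from 0.17 for DDX5 to 2.43 for DDX51, with a median of 1.13, against 1.20 over all 8478 genes. With the deposited log2 fold change these medians were 1.99 and 2.06. In 24 of 36 genes the summed RPM was at least 2-fold higher in PRMT5 RIP, which is 66.7%, close to the 62.3% of all genes. The middle 50% of the helicases' log2 ratios ran from 0.83 to 1.44, and that of all genes from 0.77 to 1.71. Only 15 helicase genes were above the median of all genes. At the level of single peaks, 48 of 99 were at least 2-fold higher in PRMT5 RIP, or 48.5% (95% exact binomial interval 38.3% to 58.7%, which treats peaks as independent), with 55.7% over all peaks. The share depends on the measure: it was 86.7% by the deposited log2 fold change (91.2% over all peaks) and 18.2% with a pseudocount of 1 (18.5% over all peaks). The peak caller's FDR was at or below 0.01 for 98 of the 99 peaks and for 96.9% of all peaks, and was missing for the other helicase peak. A single helicase peak had less RPM in PRMT5 RIP than in input, 1.01% against 3.84% of all peaks. The peak caller compared PRMT5 RIP with input, so a listed peak is expected above input and this direction is not read as a result.

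**Figure D1:**
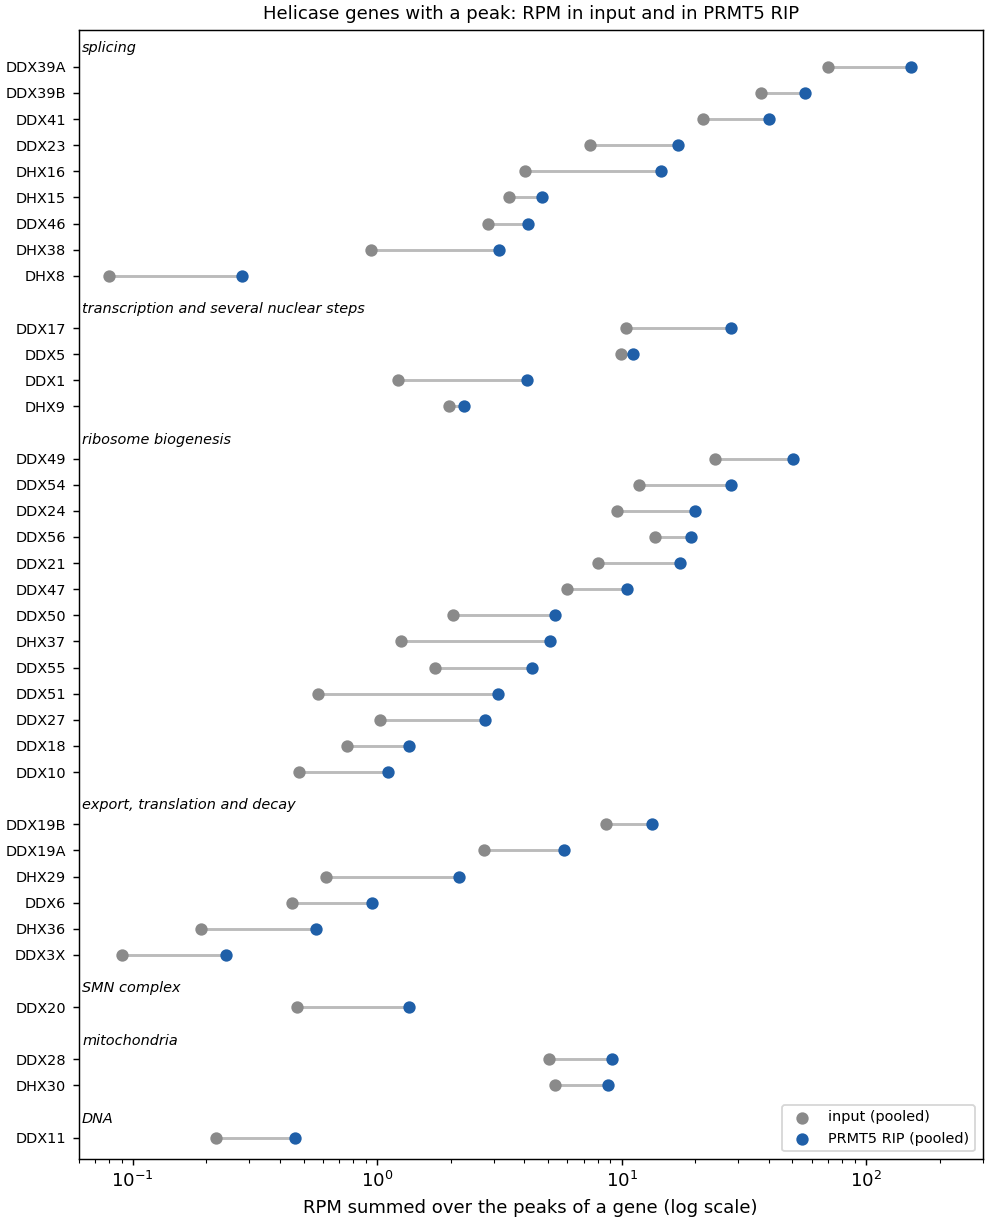
RPM summed over the peaks of each of the 36 helicase genes (log axis), with grey points for the pooled input and blue points for the pooled PRMT5 RIP, in groups by the role the helicase is known for. Every blue point lies to the right of its grey point, a direction that calling peaks over input favors. The gap is smallest for DDX5 (9.90 and 11.12 RPM) and DHX9 (1.97 and 2.26 RPM).

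**Figure D2:**
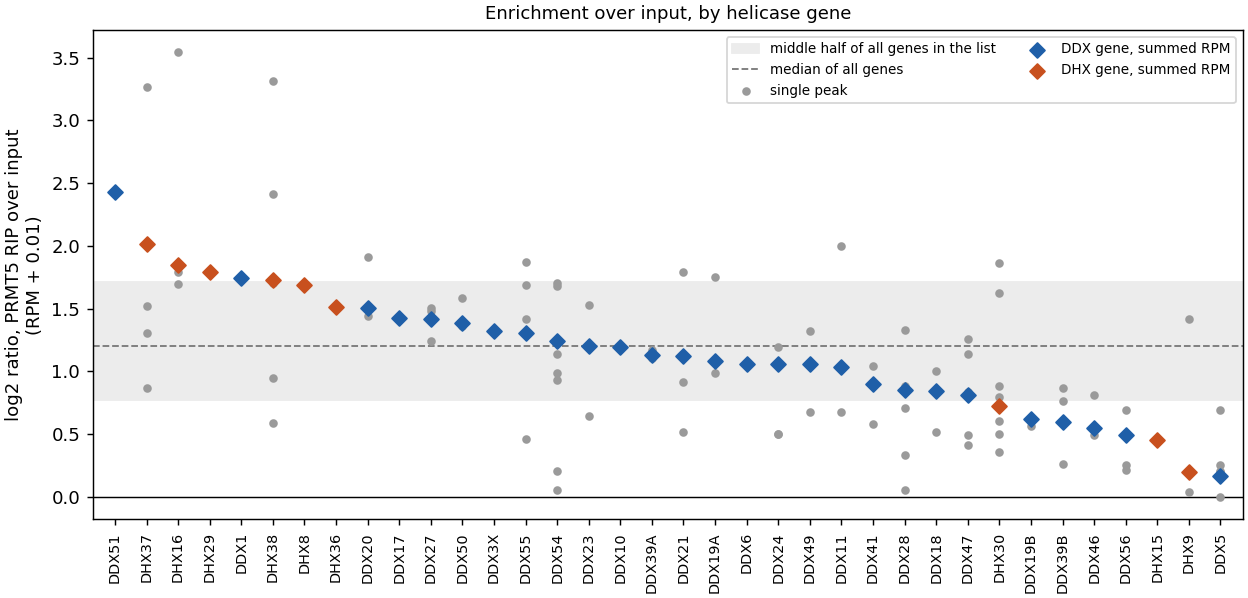
Log2 ratio of PRMT5 RIP over input for each helicase gene (diamonds, summed RPM) and each of its peaks (grey dots), in order of the gene's ratio, with the median and the middle 50% of all genes in the list. The genes run from 2.43 for DDX51 to 0.17 for DDX5, and the peaks of DHX16, DHX37 and DHX38 spread more widely than those of DDX39A or DDX27.

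The splicing helicases formed one of the larger groups, with 9 of 11 genes carrying a peak and 5 of the 9 at or above 2-fold, around a median log2 ratio of 1.13. Over all genes the share was 62.3% and the median 1.20. All counts at or above 2-fold by role stand beside that share and are not read as differences between roles. DDX39A (ENSG00000123136, chr19:14408798-14419383, minus strand) and DDX39B (ENSG00000198563, chr6:31530226-31542003, minus strand) are close paralogs that join export factors to spliced mRNA. DDX39A RNA was at 153.1 RPM after the pull-down and at 69.79 RPM in input, a log2 ratio of 1.13. Its 2 peaks had log2 ratios of 1.17 (72.34 against 32.20 RPM) and 1.10 (80.76 against 37.59 RPM), while their deposited log2 fold changes were farther apart, at 2.61 and 1.95. DDX39B RNA had 56.38 against 37.29 RPM, a log2 ratio of 0.60, so that DDX39A exceeded it by 0.54 on the log2 scale. The 3 peaks of DDX39B had 0.38 against 0.22 RPM, 33.48 against 18.31 RPM and 22.52 against 18.76 RPM from 5′ to 3′, and all 3 also list another identifier, so their reads may belong in part to an overlapping transcript. None of them reached 2-fold.

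The DEAH-box members of the splicing group drive successive rearrangements of the spliceosome. DHX16 (ENSG00000204560, chr6:30653127-30673006, minus strand), which acts before the first step of splicing, had 14.48 RPM against 4.02 RPM in input, a log2 ratio of 1.85. From 5′ to 3′ its 3 peaks had 9.76 against 3.0 RPM, 3.10 against 0.89 RPM and 1.62 against 0.13 RPM. The first 2 were close, with log2 ratios of 1.70 and 1.79. The last had little input, so its ratio depends on the pseudocount. That last peak had the highest log2 ratio of all 99, at 3.54, an 11.6-fold ratio, and the rounding of both RPM values allows a fold of 11.2 to 12.1 with the same pseudocount. DHX38 (ENSG00000140829, chr16:72093847-72112912, plus strand), which acts before the second step, had 3.14 against 0.94 RPM, a log2 ratio of 1.73, from 5 peaks that ranged from 0.59 to 3.31. Its 2 highest peaks lay at the 3′ end of the gene, with 1.38 against 0.13 RPM and 0.15 against 0.02 RPM, and both overlapped a peak on the opposite strand. Rounding leaves the second of these anywhere between 4.43-fold and 6.60-fold. DHX8, which releases the spliced mRNA, had 1 peak of 0.28 against 0.08 RPM.

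DHX15, which takes the spliceosome apart, stood at the other end of the range. It had 1 peak of 7844 nt at the start of its gene with 4.73 RPM against 3.46 RPM in input, a log2 ratio of 0.45. Among the DEAD-box members of this group, DDX41 had 40.28 against 21.62 RPM and a log2 ratio of 0.90. DDX41 is also known for mutations in myeloid malignancy. From 5′ to 3′ its 3 peaks had 12.16 against 6.59, 7.65 against 5.11 and 20.47 against 9.92 RPM, and only the last exceeded 2-fold, with log2 ratios of 0.88, 0.58 and 1.04. DDX23, which acts at the 5′ splice site, had 17.02 against 7.41 RPM and a log2 ratio of 1.20. Its 5′ peak, 12082 nt wide, was at 11.89 against 4.12 RPM and its 3′ peak, 664 nt wide, at 5.13 against 3.29 RPM, so the log2 ratio was 1.53 at the 5′ end and 0.64 toward the 3′ end. DDX46, which acts on early spliceosomes, had 4.15 against 2.84 RPM and a log2 ratio of 0.55, with all 3 of its peaks between 0.49 and 0.81. Those 3 peaks lay in the first 10% of the gene, and the middle one, 5123 nt wide, held most of the RPM with 3.51 against 2.43. DDX42 and DHX35 had no peak.

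Of the 4 members that act in transcription and several other nuclear steps, 2 had the lowest ratios of all helicase genes, and the other two were above 2-fold. DDX5 (ENSG00000108654, chr17:64498254-64506866 on the minus strand of GRCh38) and DDX17 (ENSG00000100201, chr22:38483438-38506311, minus strand) are paralogs that act as cofactors of transcription and splicing. DDX5 had 11.12 against 9.90 RPM, and DDX17 had 28.09 against 10.45 RPM. The log2 ratio was thus 0.17 for DDX5 and 1.43 for DDX17, a difference of 1.26. DDX17 had a single peak of 6850 nt that began at its annotated start. DDX5 had 6 peaks, from 25 to 978 nt wide, none at or above 2-fold, with log2 ratios between -0.004 and 0.69. After the 5′-most came peaks of 3.01 against 2.52, 2.56 against 2.22, 0.49 against 0.30, 1.21 against 1.07 and 0.54 against 0.47 RPM. Its 5′-most peak, with 3.31 RPM against 3.32 RPM in input, was the only helicase peak below input. The direction rests on the measure: the deposited log2 fold change of this peak is 0.72, which is above 0 and the lowest of any helicase peak.

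DHX9 (ENSG00000135829, chr1:182839347-182887982, plus strand), an unwinding enzyme with roles in transcription and RNA processing, also had a log2 ratio near 0. Its summed RPM was 2.26 in PRMT5 RIP and 1.97 in input, a log2 ratio of 0.20. The first 2 of its 3 peaks had 1.34 against 1.17 RPM and 0.77 against 0.75 RPM, and the 3′-most had 0.15 against 0.05 RPM. That small peak had a log2 ratio of 1.42 but carried little of the RPM. The 5′-most peak of DHX9 overlaps a peak on the opposite strand. DDX1, a part of the tRNA ligase complex, had 1 peak of 4.10 against 1.22 RPM, a log2 ratio of 1.74.

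The ribosome biogenesis helicases were the largest group: 13 of 16 genes had a peak and 10 of the 13 were at or above 2-fold, with a median log2 ratio of 1.19. The share over all genes was 62.3% and the median 1.20. DDX51 (ENSG00000185163, chr12:132136594-132144319, minus strand) had the highest gene ratio of all helicases, from 1 peak of 3.12 RPM against 0.57 RPM in input, a log2 ratio of 2.43. DHX37 (ENSG00000150990, chr12:124946826-124989131, minus strand), which acts on the small ribosomal subunit precursor, followed with 5.09 against 1.25 RPM and a log2 ratio of 2.02. Its 5′-most peak had 2.97 against 0.30 RPM, a log2 ratio of 3.27, and the 3 peaks after it had 0.92 against 0.50, 0.78 against 0.31 and 0.42 against 0.14 RPM. The 5′-most peak therefore held more than 50% of the RPM of PRMT5 RIP for this gene.

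DDX49, DDX54, DDX24 and DDX56, also nucleolar factors of ribosome assembly, were the members of this group with the most RPM. DDX49 had 50.34 RPM against 24.17 RPM in input, with a log2 ratio of 0.67 at its 5′ peak and 1.32 at its 3′ peak. Its gene strand was not known here and the match rests on position only. DDX54 had 28.02 against 11.83 RPM, a log2 ratio of 1.24, over 8 peaks, the most of any member. Those peaks ran from 0.06 to 1.71 on the log2 scale, the highest being the 5′-most with 8.21 against 2.51 RPM. The 3′-most, with 13.11 against 5.54 RPM, lists another identifier and overlaps a peak on the opposite strand.

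DDX24 had 20.04 against 9.61 RPM and a log2 ratio of 1.06, with its 5′-most peak at 1.19 and the other two at 0.50. DDX56 had 19.27 against 13.71 RPM, and its log2 ratio of 0.49 was the lowest of the group. All 3 of its peaks were below 2-fold. DDX47 had 10.56 against 6.0 RPM, a log2 ratio of 0.81 over 5 peaks between 0.41 and 1.26. The 5′-most held most of its RPM, with 7.68 against 4.31, and only the 2 peaks nearest the 3′ end, with 0.85 against 0.35 and 0.54 against 0.24 RPM, were above 2-fold. DDX27 had 2.76 against 1.03 RPM, a log2 ratio of 1.41, with all 3 peaks between 1.24 and 1.50. Of these peaks, 2 overlap a peak on the opposite strand.

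DDX21 and DDX50 are paralogs that lie next to each other on chromosome 10, and both act in the nucleolus. DDX21 had 17.37 RPM against 7.99 RPM in input, and DDX50 had 5.33 and 2.04 RPM. Their log2 ratios, 1.12 and 1.38, differed by 0.26, less than the spread of the DDX21 peaks. These had 5.22 against 1.50, 11.76 against 6.22 and 0.39 against 0.27 RPM from 5′ to 3′, log2 ratios of 1.79, 0.92 and 0.51. DDX55 had 4.29 against 1.73 RPM and a log2 ratio of 1.31, with 3 of its 4 peaks above 2-fold and the other at 0.80 against 0.58 RPM. DDX10 had 1.11 against 0.48 RPM and DDX18 had 1.35 against 0.75 RPM, log2 ratios of 1.19 and 0.84, and DDX31, DDX52 and DHX33 had no peak.

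In the group of export, translation and decay, 6 of 8 genes had a peak and 5 of the 6 were at or above 2-fold, with a median log2 ratio of 1.20. DHX29, which helps ribosomes to scan structured leaders, had 2.17 against 0.62 RPM and the highest log2 ratio of the group at 1.79. DHX36, which unwinds G-quadruplexes, had 0.56 against 0.19 RPM, a log2 ratio of 1.51 from 1 peak of 75 nt. DDX6, a translational repressor and decay factor of P-bodies, had 0.95 against 0.45 RPM. DDX3X, a factor of translation initiation, had a single peak of 25 nt with 0.24 against 0.09 RPM. DHX34 was among the genes of this group without a peak.

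DDX19A and DDX19B, paralogs that release mRNA from the nuclear pore, lie side by side on chromosome 16. DDX19A had 5.79 against 2.73 RPM and a log2 ratio of 1.08, and DDX19B had 13.29 against 8.63 RPM and a log2 ratio of 0.62. The widest helicase peak, 49633 nt with 3 identifiers, was assigned to DDX19B and reaches over DDX19A, so these values are uncertain. It was also the helicase peak without an FDR. Both DDX19A peaks overlap a peak on the opposite strand, as does this widest peak.

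DDX20, the helicase of the SMN complex that loads Sm proteins onto small nuclear RNAs, had 1.35 RPM against 0.47 RPM in input, a log2 ratio of 1.50. Both of its peaks lay near the start of the gene, with 0.14 against 0.03 RPM and 1.21 against 0.44 RPM. Neither mitochondrial member reached 2-fold. DDX28, which helps to assemble the mitochondrial ribosome, had 9.11 against 5.04 RPM, a log2 ratio of 0.85. Of its 5 peaks, the 5′-most had 5.74 against 2.28 RPM and a log2 ratio of 1.33, and the next had 1.48 against 1.43 RPM and a log2 ratio of 0.05. DHX30, which acts on the mitochondrial ribosome too, had 8.80 against 5.32 RPM, a log2 ratio of 0.73. Its 7 peaks ran from 0.36 to 1.87, and the highest was the 5′-most, 75 nt wide, with 0.61 against 0.16 RPM. DDX11, a DNA helicase of sister chromatid cohesion, had 0.46 against 0.22 RPM.

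None of the 3 antiviral helicases (DDX60, DDX60L and DHX58), the 4 germ cell helicases (DDX4, DDX25, DDX43 and DDX53) or the 4 less described ones (DDX59, DHX32, DHX40 and DHX57) had a peak. Of the 18 helicase genes without a peak, 11 were DDX and 7 were DHX. The list holds called peaks only, so no RPM is known for these genes. Low RNA, low recovery and a peak under an unnamed identifier cannot be told apart.

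At or above 2-fold were 6 of 9 DHX genes and 18 of 27 DDX genes, beside 62.3% of all genes. The 9 DHX genes had a median log2 ratio of 1.69 and the 27 DDX genes one of 1.08, a difference of -0.61 for DDX minus DHX. This order did not hold across ways of computing it: the difference turned to 0.24 when each gene was read at its peak with the highest input RPM, and to 0.23 with a pseudocount of 1. The DHX genes ran from 0.20 for DHX9 to 2.02 for DHX37, and the DDX genes from 0.17 to 2.43, so the families overlapped over nearly their whole range. The input signal behind these ratios had a median of 1.25 RPM for the DHX genes and 5.04 RPM for the DDX genes, and its part in the order was not tested.

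Lower input went with a higher ratio. The 11 helicase genes with a summed input under 1 RPM had a median log2 ratio of 1.50 and 10 of them reached 2-fold, whereas the 25 with at least 1 RPM had a median of 1.06 and 14 of them reached it. Over all genes the corresponding medians were 1.68 and 0.99, and 49.3% of the 5478 genes with at least 1 RPM of input reached 2-fold. That share was not computed for all genes under 1 RPM of input, so the 10 of 11 helicase genes are not read as unusual. Spearman's rho between input RPM and log2 ratio was -0.47 across the 36 helicase genes and -0.55 across all genes, where both measures share the input value and genes are not independent replicates. The part of this relation in the order of the helicases was not tested.

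**Figure D3:**
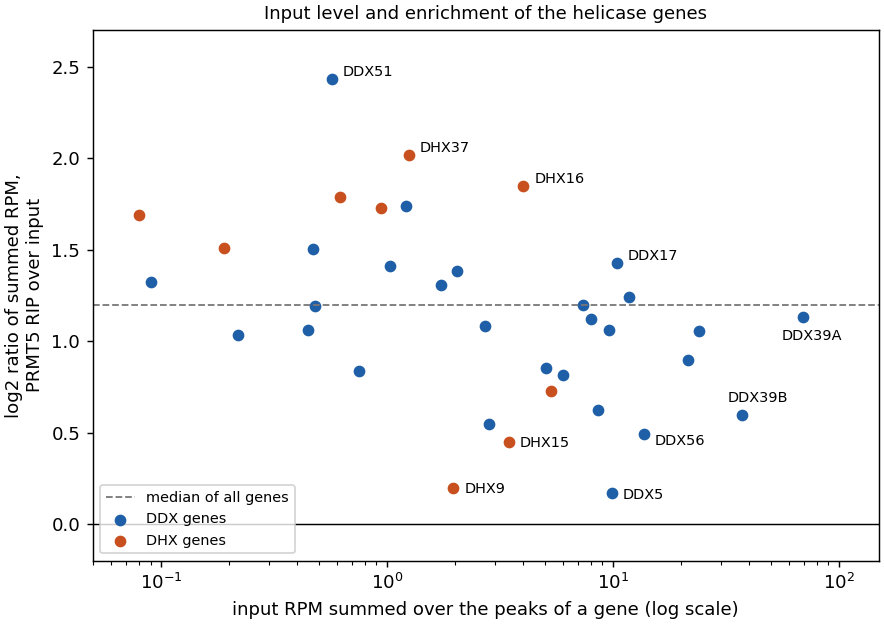
Summed input RPM (log axis) against the log2 ratio of summed RPM for the 27 DDX genes (blue) and the 9 DHX genes (orange), with the median of all genes as a dashed line. The paralogs DDX5 and DDX17 lie at log2 ratios of 0.17 and 1.43, and 3 of the DHX genes lie below 1.

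Where a helicase RNA had its peaks was examined along the gene. In 26 genes with at least 2 peaks, the 5′-most peak had the higher log2 ratio in 15 genes, which is 57.7% (95% exact binomial interval 36.9% to 76.6%), with 69.5% among all genes with at least 2 peaks. The interval treats genes as independent, and it includes the 69.5%. The median log2 ratio was 1.18 for the 5′-most and 1.12 for the 3′-most peaks of the helicases, and 1.39 and 0.96 over all genes. The genes with the largest gaps in favor of the 5′ end were DHX37 (1.75), DDX21 (1.28) and DHX30 (0.98), and in each of them at least 1 of the 2 peaks had an input of at most 0.30 RPM. The largest gaps in favor of the 3′ end were those of DHX16, DHX38, DDX11 and DHX9, and in all 4 the 3′-most peak had an input RPM of at most 0.13.

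**Figure D4:**
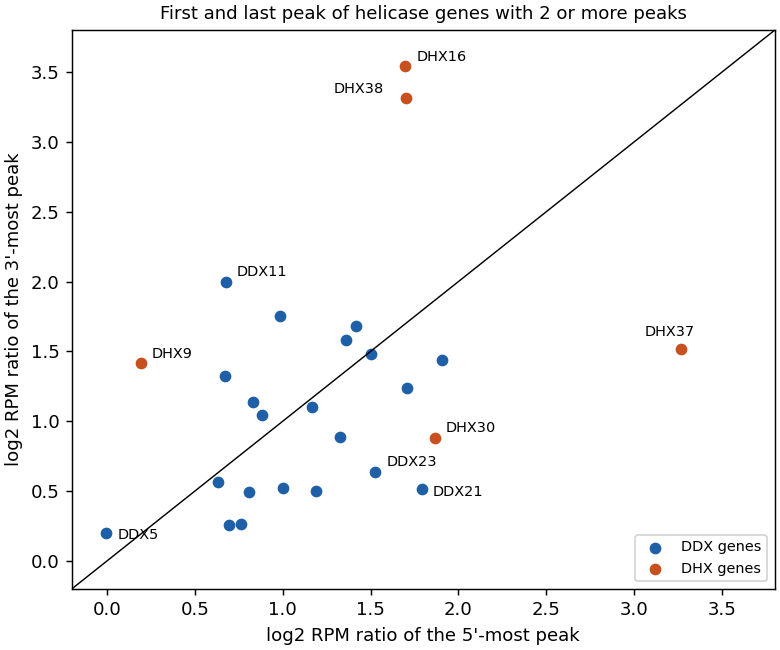
Log2 RPM ratio of the 5′-most peak against that of the 3′-most peak for the 26 helicase genes with at least 2 peaks, with the line of equal ratios. The 15 genes under the line had the higher ratio at the 5′ end, and DHX16 and DHX38 stand highest above it with 3′ log2 ratios of 3.54 and 3.31.

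The 5′-most peak began within 50 nt of an annotated start in 19 of the 34 helicase genes with such a start (55.9%), and in 50.4% of all named genes. The 50 nt limit was set with these peaks in view. The median distance was 26 nt for the helicases and 35 nt for all named genes. Of the 19, 12 had a 5′-most peak at or above 2-fold, and among all named genes with such a peak 71.8% did. The median log2 ratio of the 5′-most peak was 1.32 in the 19 and 1.50 in the 15 genes where it began farther away, and the same medians over all named genes were 1.39 and 1.44. The sequences printed for DDX17, DDX39A, DDX39B, DDX23, DHX16, DDX47, DDX54 and DDX56 all come from peaks of the first kind, and the log2 ratios of those peaks ran from 0.69 for DDX56 to 1.71 for DDX54.

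By position, 28 of the 99 peaks were centred in the first 10% of their gene, 55 in the next 80% and 15 in the last 10%, while 1 reached beyond the gene. Their median log2 ratios were 1.33, 0.87 and 1.26. Exons were not used here, so it is not known which of these peaks lie in untranslated regions, coding exons or introns.

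**Figure D5:**
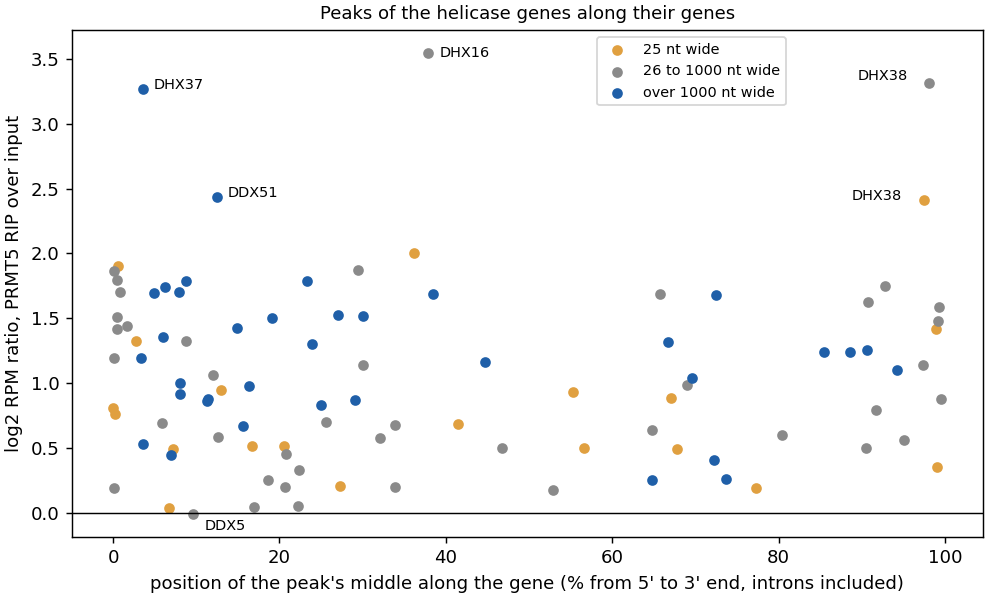
Log2 RPM ratio of 98 helicase peaks against the position of their middle along the gene, introns included, in colours by width. Peaks at or near 0 are mostly in the first 40% of the gene and belong to DDX5, DDX28, DDX54 and DHX9 among others, and the highest peaks, of DHX16, DHX37 and DHX38, lie at 3 different positions.

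Peak widths were uneven. The median was 175 nt over the helicase peaks, which ran from 25 to 49633 nt, against a median of 275 nt over all peaks. Of the 99, 20 had the smallest width of 25 nt (20.2%, against 15.0% of all peaks) and 37 were over 1000 nt (37.4%, against 32.5%). All helicase peaks were given as 1 unbroken block, so the widths are genomic spans and may include introns. The wide peaks carried 84.2% of the helicase RPM in PRMT5 RIP and had a median log2 ratio of 1.24, whereas those of 25 nt had a median of 0.73 and between 0.14 and 0.77 RPM each. Over all peaks these medians were 0.99 and 0.94.

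Related genes were read from 2 lists, of other RNA helicases and of helicase cofactors, beside the 62.3% of all genes at or above 2-fold. Of 21 RNA helicases with other names, 13 had a peak and 6 of the 13 were at or above 2-fold, with a median log2 ratio of 0.98 and a range of 0.04 to 2.85. The 3 with the most RPM were EIF4A1, the helicase of the cap-binding complex (434.8 against 424.1 RPM, log2 ratio 0.04), EIF4A3, of the exon junction complex (40.90 against 21.12 RPM, 0.95), and SNRNP200, of the spliceosome (19.78 against 10.71 RPM, 0.88). Several identifiers lie in EIF4A1 and EIF4A2, which host small nucleolar RNA genes, and without these 2 genes the median was 1.84. Of 28 cofactors of DEAD-box and DEAH-box helicases, 19 had a peak and 11 of them were at or above 2-fold, with a median log2 ratio of 1.09. Among these, EIF4B, which stimulates EIF4A, had 53.70 against 45.37 RPM (log2 ratio 0.24). SUGP1 and RBM17, splicing factors, had 27.46 against 16.84 RPM (0.71) and 27.41 against 12.85 RPM (1.09). None of the listed genes with a peak had less RPM in PRMT5 RIP than in input. Peaks were called by comparing these 2 groups, so this direction is not read as a result.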

How the data were processed

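Per the labels, libraries were made with a strand-specific kit, and the submitters' processing notes name fastp, HISAT2 and the build hg38, with no role or version. The peak caller, its annotation and how the libraries of a group were joined are not given in the sources used here. The authors deposited, for each peak, RPM values for PRMT5 RIP and for input, rounded to 0.01. The authors also deposited a log2 fold change, a p-value and an FDR of their peak caller, which compare PRMT5 RIP with input. The scaling behind the deposited log2 values is not stated. They were used as an alternative, and the FDR only for counts.

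A peak with several identifiers went to the first one listed. Names came from the study's supplementary list of targets (7 members) or from the protein-coding RefSeq gene of GRCh38.p14 touched by all peaks of an identifier on its strand (29 members, 1 of them without a known strand). Both routes named 815 identifiers, and 810 of these names matched exactly. Where several identifiers lay in 1 gene, the one whose peaks spanned most took the name, a rule set after the data were seen, which touched no member. Members with full values were the 8 with the most RPM in PRMT5 RIP, the 6 with the highest and the 6 with the lowest ratio among the 25 with a summed input of at least 1 RPM, those with at least 5 peaks, and DDX20. The members, roles and lists were chosen with earlier results of these data known. Peak starts were raised by 1. Intervals are exact (Clopper-Pearson). The comparison of 5′-most and 3′-most peaks was tested on simulated peaks without noise, and the strand overlap on a small known arrangement. Naming, motif counts and distances to starts were not tested in this way. Python 3.11.15, pandas 2.3.3, numpy 2.4.6 and scipy 1.17.1 were used.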

Additional observations from a re-analysis of the deposited data

How the results depend on the processing

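No paired analysis was possible because the list holds 1 pooled value per group, and for the same reason no replicate could be left out. The number of helicase peaks fell from 99 to 54 with an input of at least 0.5 RPM, and the other 5 settings kept it within 1.5 times. The number of helicase genes with a peak was 36 and stayed within 1.5 times under all 6 settings. The median log2 ratio over the genes, 1.13, was 1.11 with the median over peaks, 1.08 with the peak of highest input, 1.99 with the deposited log2 fold change, 1.06 and 0.80 with pseudocounts of 0.1 and 1, 1.08 with a summed input of at least 0.5 RPM and 1.12 without peaks that overlap the opposite strand. The DDX minus DHX difference of -0.61 was, in the same order, -0.45, 0.24, -0.48, -0.13, 0.23, -0.66 and -0.42, so it reversed under 2 of 7 settings, and the cause was not tested. The median over the peaks, 0.98, was 1.82 with the deposited log2 fold change, 0.87 and 0.39 with pseudocounts of 0.1 and 1, 0.81 with an input of at least 0.5 RPM, 1.10 with a width of at least 50 nt and 0.92 without opposite-strand overlap. The share of peaks at or above 2-fold, 48.5%, was 86.7% by the deposited log2 fold change, 18.2% with a pseudocount of 1 and 37.0% with an input of at least 0.5 RPM. The share of genes with the higher 5′ peak, 57.7%, stayed inside its interval under all 5 settings. With genes of several identifiers left out, a setting added after the data were seen, the list medians were 1.84 and 1.15 in place of 0.98 and 1.09. Of the 99 helicase peaks, 45 had an input under 0.5 RPM, where rounding and unknown read counts limit the ratio.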
